A study of Homo sapiens with 6 samples.

Results

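The 36 genes described here make or handle cholesterol and fatty acids and were taken by name from a fixed list, out of 35052 genes in the table. By role, 7 encode enzymes of the mevalonate pathway, 11 encode enzymes from squalene to cholesterol, and 8 act in fatty acid synthesis. Another 5 control the SREBP transcription factors, and the last 5 are targets of the sterol receptor LXR or genes of cholesterol transport. All 36 were found, and 35 passed the filter on low counts. ELOVL6, which lengthens fatty acids, did not pass and had 2 to 13 reads per library.

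RNA-seq was made from EoL-1, an established human cell line that came from an eosinophilic leukaemia. The genotype was JUN knockout in 3 libraries and ATF3/JUN double knockout in the other 3, so both groups carried the JUN knockout and differed by label in ATF3. The cells were grown in RPMI medium with fetal bovine serum, which supplies lipoprotein cholesterol, and polyadenylated RNA was sequenced. The treatment text names CRISPR/Cas9 and ATF3, and no unedited library was analysed here. Clone codes stand only in the names of the deposited files, where 4A, 4C and 5Z are replicates 1, 2 and 3 of both groups. If each code is 1 clone, a code holds 1 JUN knockout and 1 double knockout library. Nothing states that libraries came from separate cultures, so p-values measure the spread between these libraries.

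Cells make cholesterol from acetyl-CoA through mevalonate and squalene, and they make fatty acids from the same precursor. The SREBP proteins are held in the endoplasmic reticulum by SCAP and INSIG when sterols are plentiful and are released to switch on both sets of genes when sterols are scarce. SREBP-2 mainly drives sterol genes and SREBP-1c mainly fatty acid genes, and SREBP binds DNA weakly unless helped by other factors such as NF-Y, which binds CCAAT boxes. LXR answers excess sterol, among other things by switching on export pumps such as ABCA1.

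Libraries held 26146998 to 29567970 estimated reads. JUN knockout replicate 1 stood apart from the other JUN knockout libraries: the chi-square of their counts was 41.9 and 67.3 per gene, against 12.8 between replicates 2 and 3. Double knockout replicate 3 likewise lay at 38.8 and 32.6 from its own group, against 11.7 between the other double knockout libraries. JUN knockout replicate 1 lay nearer to double knockout replicates 1 and 2 (20.9 and 20.2), and double knockout replicate 3 nearer to JUN knockout replicates 2 and 3 (19.0 and 13.5), so the libraries split across the genotypes. ATF3 mRNA was at 20.2, 13.7 and 8.89 CPM (reads scaled to the same library total) in the JUN knockout and 13.1, 10.0 and 7.63 CPM in the double knockout, and JUN mRNA was present in every library. The labels call the cells eosinophils, yet 5 of 11 eosinophil markers (PRG3, EPX, CLC, IL5RA and GATA1) were at 0 in every library and 9 were under 1 TPM (a level scaled for transcript length). RNASE2 and RNASE3 carried nearly all of the summed marker level, which ran from 70.8 to 194.0 TPM over JUN knockout libraries and from 121.0 to 186.0 TPM over double knockout libraries. Each of 6 other marker lists (T cell, B cell, erythroid, megakaryocyte, epithelial and fibroblast) summed to under 10 TPM in every library.

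Promoter sequences were read for 31 members from RefSeq (GRCh38.p14), and motifs were searched in the 250 bases before the annotated start. The letters CCAAT, on either strand, stood in 21 of the 31 (67.7%), against 37.0% of 27305 genes, and in 13 of 15 sterol members with a sequence. The 4 members below are shown because they were low together in JUN knockout replicate 1, as described further on. CCAAT also stood in ACACA, ACSS2, MYLIP and SREBF2, which lay 0.964-fold, 0.848-fold, 0.901-fold and 1.06-fold below the other JUN knockout libraries there. They thus hardly shared the low level or did not share it, and a link of CCAAT to that library was not tested. Each stretch is 5′ to 3′ on the gene's strand, and capitals mark CCAAT or its reverse complement ATTGG.
HMGCS1 (chr5:43313513-43313572, minus strand): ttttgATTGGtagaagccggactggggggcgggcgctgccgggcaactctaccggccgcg
DHCR7 (chr11:71448436-71448495, minus strand): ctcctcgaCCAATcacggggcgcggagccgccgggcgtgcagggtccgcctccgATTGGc
SCD (chr10:100346999-100347058, plus strand): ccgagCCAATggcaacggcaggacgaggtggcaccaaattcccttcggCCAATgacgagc
INSIG1 (chr7:155297703-155297762, plus strand): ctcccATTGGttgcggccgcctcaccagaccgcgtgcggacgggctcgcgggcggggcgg

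The classical sterol regulatory element, a site of SREBP, was searched in its classical form on both strands. It stood in the promoter of 1 member, SREBF2, which encodes SREBP-2 itself, and in 0.0439% of all genes. The shorter form TCACNCCAC overlaps it and was found in the same member and in 1.09% of genes. Either form thus stood in 0 of the 15 sterol members with a sequence. Variants of these forms were not searched, so a missing match does not show that SREBP has no site there. In the stretch below, capitals mark the classical form.
SREBF2 (chr22:41832961-41832990, plus strand): atgacgcgccATCACCCCACgcaccgcttc

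An E-box, CACGTG, stood in 4 members (ABCA1, INSIG1, SC5D and SCAP; 7.73% of genes). ABCA1 is shown because it differed most clearly between clone codes, and capitals mark its E-box. Repeats of the LXR kind, with AGGTCA or AGGTTA placed 4 bases before AGGTCA, stood in none of the 31, and in 0.0183% and 0.022% of genes. Of the sites of AP-1 and ATF factors, TGANTCA stood in none (8.06% of genes) and TGACGTCA in FADS1 (2.03% of genes). These are matches of letters in short windows and do not show binding. The forms searched were fixed, so a promoter without a match, that of ABCA1 included, was not shown to lack a site.
ABCA1 (chr9:104928248-104928307, minus strand): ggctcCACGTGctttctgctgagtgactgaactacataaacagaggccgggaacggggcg

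Per transcript length, INSIG1 was the most abundant member, at a mean of 342.6 TPM over 6 libraries. FDPS and FDFT1, which make farnesyl diphosphate and squalene, followed at 183.4 and 162.4 TPM. SCD, which puts the double bond into stearic acid, was at 127.6 TPM, and ACLY, which supplies cytosolic acetyl-CoA, at 100.7 TPM. The ranks of FDPS and FDFT1 rest in part on short transcripts. FDPS-215 (680 bases) was at 61.9 to 96.4 TPM over the libraries, and FDPS-203, its most read coding transcript, at 18.9 to 28.2 TPM. FDFT1-217 (741 bases) was at 65.4 to 86.4 TPM. In CPM, FDPS (103.7 to 159.6) and FDFT1 (125.3 to 225.3) lay below SCD (405.2 to 884.4) and ACLY (290.4 to 440.8). Levels of SREBF2 and SREBF1, which encode the SREBP proteins, were 77.0 and 64.4 TPM. The lowest levels were those of the export pumps ABCA1 (2.48 TPM) and ABCG1 (0.274 TPM), and of ELOVL6 (0.0497 TPM).

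Across libraries, sterol genes were low together in JUN knockout replicate 1 (code 4A). This library had the lowest CPM for 25 of 35 tested members, against 24.6% of all 12954 tested genes. In bulk RNA, fewer cells that express these genes and less RNA per cell cannot be told apart. The library was lowest for 17 of 18 sterol genes, the exception being PMVK, and for 5 of 7 fatty acid genes. It lay at least 1.5-fold below the mean of the other JUN knockout libraries for 20 members, 14 of them sterol genes, as did 7.32% of all genes. Double knockout replicate 3 was the highest library for 18 members, 12 of them sterol genes, against 16.2% of all genes.

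**Figure D1:**
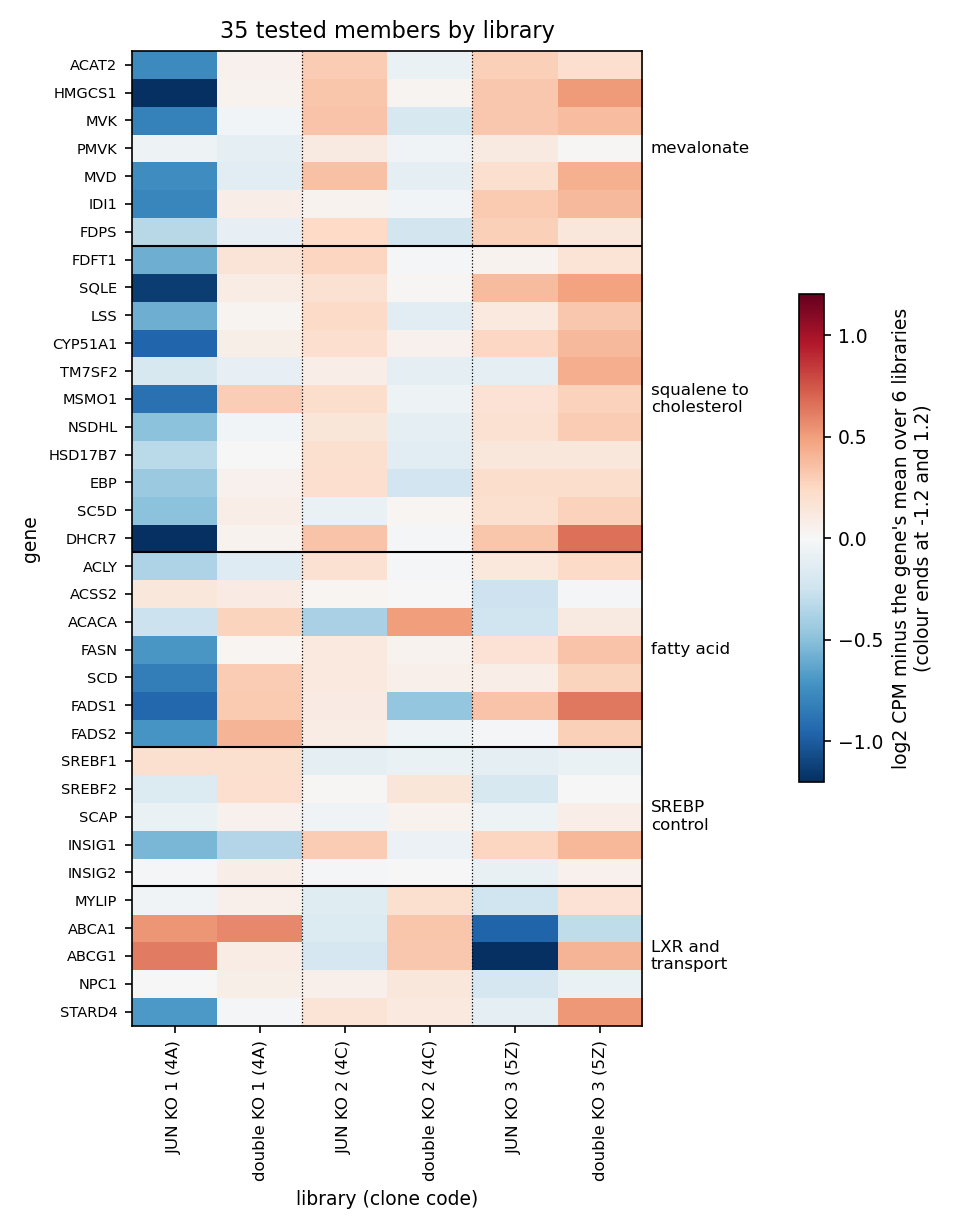
Heat map of the 35 tested members (rows, grouped by role) in the 6 libraries (columns, by clone code). Colour gives log2 CPM minus the gene's own mean over the libraries, and the first column, JUN knockout replicate 1, is blue for 17 of 18 sterol genes by more than in any other library.

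The deepest gap was that of DHCR7, which makes cholesterol from its last precursor. DHCR7 was at 24.9, 80.8 and 80.3 CPM in the JUN knockout replicates 1, 2 and 3 and at 65.4, 63.0 and 100.5 CPM in the double knockout. Its first JUN knockout library lay 3.23-fold below the mean of the other JUN knockout libraries. HMGCS1, which makes HMG-CoA at the entry to the mevalonate pathway, was at 31.5, 93.7 and 93.0 CPM and at 76.7, 76.0 and 106.2 CPM, a gap of 2.97-fold. SQLE, which oxidises squalene, had a gap of 2.68-fold. These 3 genes were chosen after their values were seen. All 18 sterol genes had a gap above 1, with a median of 1.82-fold and the smallest at PMVK, the phosphomevalonate kinase (1.12-fold).

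The fatty acid genes had a median gap of 1.68-fold in that library. The desaturase FADS1, chosen after its values were seen, had the deepest gap of this branch, 2.25-fold, at 39.8, 81.9 and 97.1 CPM in the JUN knockout and 95.2, 55.5 and 118.8 CPM in the double knockout. SCD was at 405.2, 777.9 and 758.4 CPM and at 884.4, 749.9 and 866.5 CPM, low in JUN knockout replicate 1 by 1.90-fold. ACACA, the acetyl-CoA carboxylase that commits carbon to fatty acids, did not share the gap (0.964-fold), and neither did ACSS2 (0.848-fold), which activates acetate. RNASE2 and RNASE3 were also lowest in JUN knockout replicate 1, at 30.3 and 5.26 CPM, and their part in the pattern was not tested.

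Median log2 CPM of the 18 sterol genes, each relative to its own mean, was −0.67, 0.20 and 0.20 in the JUN knockout and 0.04, −0.07 and 0.32 in the double knockout. For the 7 fatty acid genes it was −0.70, 0.10 and 0.08, then 0.27, 0.00 and 0.27. The branches thus differed by at most 0.23 within a library. The sterol median minus the fatty acid median was 0.04, 0.10 and 0.12 in the JUN knockout and −0.23, −0.07 and 0.05 in the double knockout, so the ranges of the groups overlapped. Among the genes of SREBP control, the highest library was 1.92-fold above the lowest for INSIG1, and 1.11-fold to 1.32-fold above it for the other 4.

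**Figure D2:**
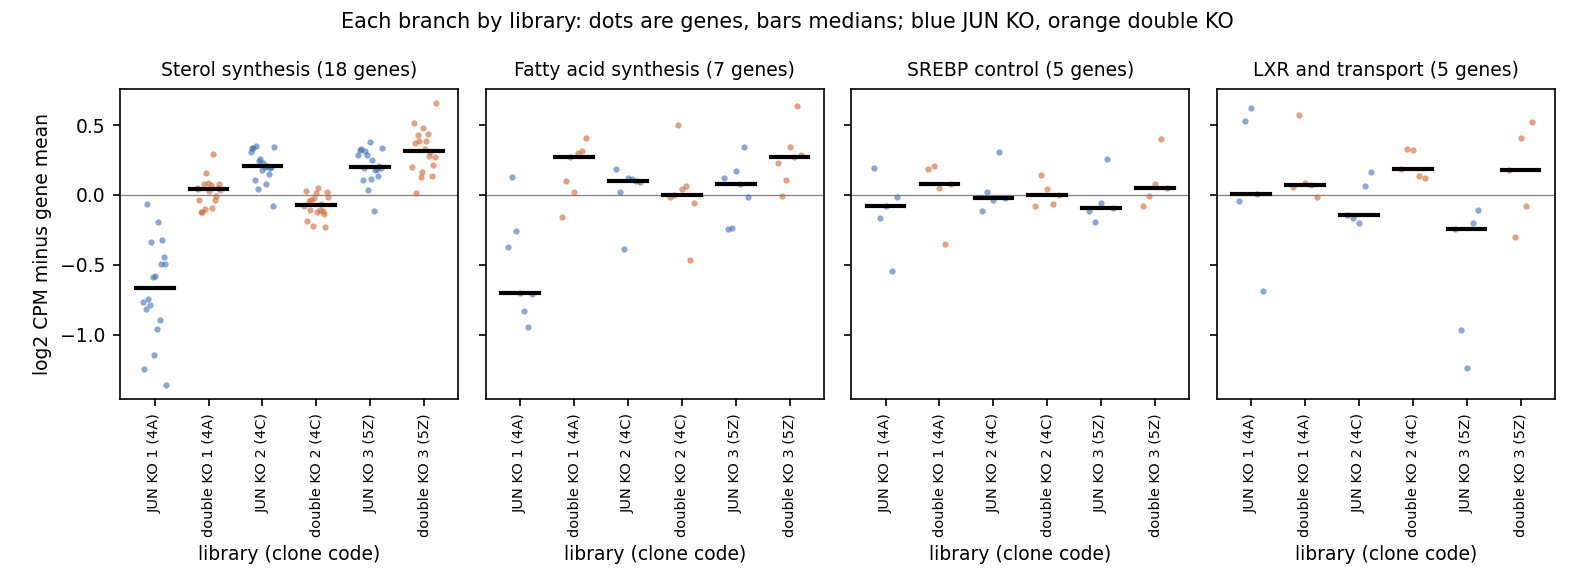
Log2 CPM of each tested member minus its own mean over the libraries (y axis), by library and clone code (x axis), in 4 panels by branch. Dots are genes and bars are medians, and the sterol and fatty acid medians are lowest in JUN knockout replicate 1, at −0.67 and −0.70.

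Libraries were next compared by clone code, with the group as a second term (edgeR quasi-likelihood F test, Benjamini-Hochberg adjustment). Among members, 1 of 35 passed, ABCA1, against 1.75% of all tested genes (227). ABCA1 pumps cholesterol out of the cell onto apolipoprotein A-I, and its gene lies on chromosome 9 at 104781002 to 104928237, minus strand (GRCh38). It was at 38.6 and 39.8 CPM in the JUN knockout and double knockout libraries of code 4A. In code 4C it was at 23.9 and 33.6 CPM, and in code 5Z at 13.7 and 21.7 CPM. The libraries of 4A were thus the highest and those of 5Z the lowest, and no values overlapped between codes (adjusted p = 0.0326 by edgeR). Nearly all its reads (99.97%) were assigned to the transcript ABCA1-202. The call was lost with limma-voom (adjusted p = 0.0546), without the group term (0.113), with an offset for transcript length (0.106) and without JUN knockout replicate 3 (0.11), while the other alternatives gave 5e-06 to 0.0441.

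At an unadjusted p under 0.05 there were 6 of 35 members (ABCA1, ACLY, FASN, INSIG1, SREBF1 and STARD4), against 20.0% of all genes. INSIG1, whose protein retains SCAP in the endoplasmic reticulum and is itself an SREBP target, was at 526.2 and 600.6 CPM in code 4A. It was at 949.5 and 732.1 CPM in 4C and at 917.6 and 1012 CPM in 5Z, so 4A was below the other 4 libraries (edgeR adjusted p = 0.0795). SREBF1 ran the other way, at 196.4 and 195.4 CPM in 4A, 158.5 and 162.6 CPM in 4C and 158.4 and 162.1 CPM in 5Z (edgeR adjusted p = 0.179). ACLY was at 290.4 and 337.3 CPM in 4A, 427.4 and 371.8 CPM in 4C and 409.5 and 440.8 CPM in 5Z (edgeR adjusted p = 0.16). FASN, chosen after its values were seen, was at 166.1 and 274.0 CPM, 293.4 and 278.6 CPM, and 304.6 and 342.7 CPM in the same order. Both genes had 4A as their lowest code. DESeq2 called 4 members by clone code, ABCA1, ACLY, FASN and INSIG1, against 6.99% of all genes.

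Both libraries of 4A lay below the other 4 for 5 members (PMVK, MVD, ACLY, FASN and INSIG1), against 11.6% of all genes. They lay above the other 4 for 3 members (ACSS2, SREBF1 and ABCA1), against 12.8% of genes. Both libraries of 5Z lay above the other 4 for 8 members, against 14.7% of all genes, and 6 of these were sterol genes (IDI1, SQLE, CYP51A1, NSDHL, EBP and SC5D). For 3 members (ACSS2, ABCA1 and NPC1) both libraries of 5Z lay below the other 4, against 15.6% of genes. No member had both libraries of 4C below or above the other 4, against 3.48% and 3.34% of genes. No sterol gene passed the clone code test, where the lowest adjusted p was 0.264. Without double knockout replicate 1 the test called 20 members rather than 1, and 2634 genes rather than 227. That fit leaves JUN knockout replicate 1 as the single library of code 4A, and 1 residual degree of freedom.

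In the comparison of the double knockout with the JUN knockout, edgeR called 0 of 35 members and 0.0% of all 12954 genes. At an unadjusted p under 0.05 there were 2 members, ACACA and MYLIP, against 753 genes (5.81%). With the replicate number as a block it again called 0 members, with 5 at an unadjusted p under 0.05 (ABCA1, ACACA, MYLIP, SREBF2 and STARD4), against 1268 genes (9.79%). DESeq2 called 1 member, ACACA, against 71 genes (0.548%), with 3 members and 5.8% of genes at an unadjusted p under 0.05, and limma-voom called 0 members and 4 genes. The groups did not overlap, with the double knockout higher, for 4 members (ACACA, SCAP, INSIG2 and MYLIP), against 6.31% of all genes. No member lay without overlap in the other direction, against 5.94% of genes.

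Of the 18 sterol genes, 15 had a log2 fold change above 0 (double knockout minus JUN knockout), with a median of 0.14. All 7 tested fatty acid genes were above 0, with a median of 0.30. The corresponding values were 4 of 5 and 0.08 for SREBP control, 5 of 5 and 0.32 for LXR and transport, and 50.7% and 0.00 for all tested genes. The LXR and transport set includes ABCG1, with 5 to 19 reads per library, and its median is the value of ABCA1 (SE 0.38). The sterol value rested on JUN knockout replicate 1. Without it, 2 of 18 sterol genes were above 0 (median −0.09), whereas 5 of 7 fatty acid genes (median 0.12) and 5 of 5 LXR and transport genes (median 0.33) were. The LXR and transport median was 0.02 without JUN knockout replicate 3, with 5 of 5 still above 0. Without double knockout replicate 3 the sterol count was 8 of 18 (median −0.02) and the fatty acid median was 0.12, while the latter was 0.48 without JUN knockout replicate 3.

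Within clone codes, the sterol genes went different ways. In code 4A, 17 of 18 were higher in the double knockout (median log2 difference 0.68), and 11 were higher by at least 1.5-fold. In code 4C, 17 of 18 were lower in the double knockout (median −0.29), SC5D being the exception. In code 5Z, 15 of 18 were higher (median 0.10). Of 12809 tested genes with reads in every library, 6768, 6379 and 6544 were higher in 4A, 4C and 5Z. Their medians were 0.0168, −0.0015 and 0.0049. Fatty acid medians were 0.72, −0.07 and 0.24. With 1 library of each group per code, these differences have no replicate check. Members higher in the double knockout in 3 of 3 codes numbered 8 of 35, 1 of them a sterol gene, against 2335 of all 12954 genes. Over all members, 16 of 35 were at least 1.5-fold higher in the double knockout in 4A, against 4.47% of genes. The counts were 1 in 4C and 3 in 5Z, against 6.35% and 6.1% of genes.

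**Figure D3:**
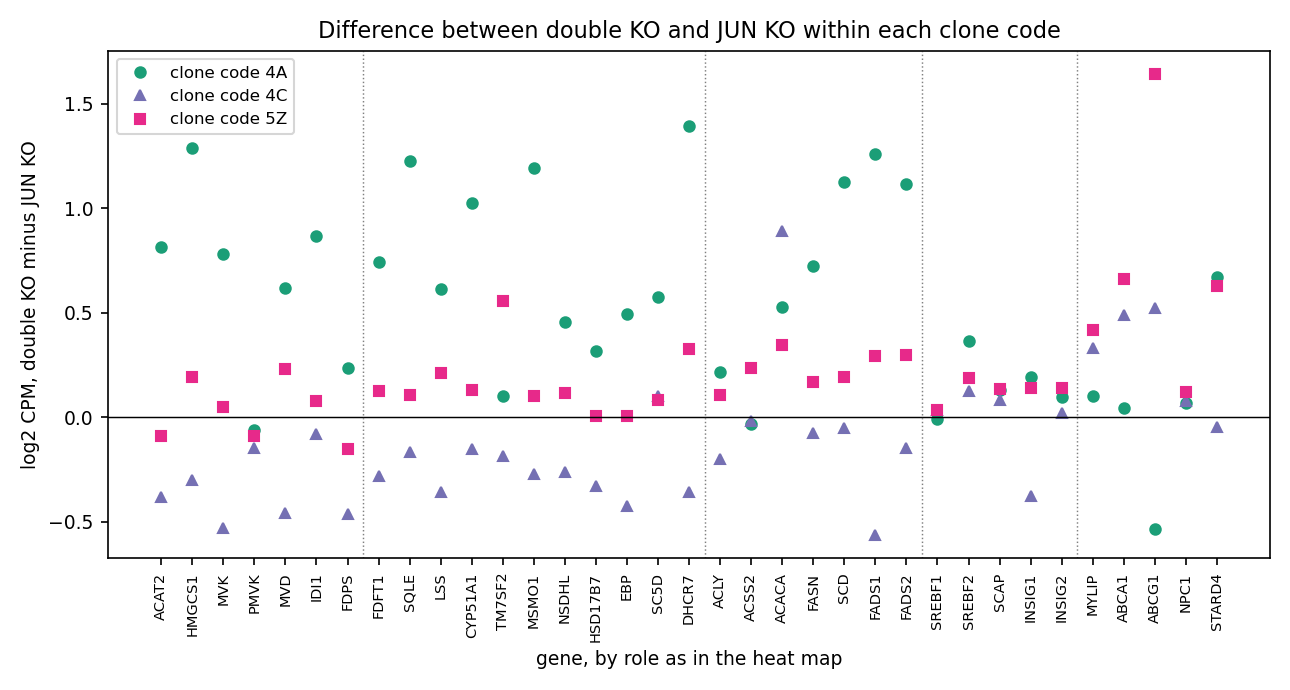
Log2 CPM of the double knockout library minus that of the JUN knockout library with the same clone code (y axis), for each tested member in order of role (x axis). Sterol genes lie mostly above 0 in code 4A, with a median of 0.68, and mostly below 0 in code 4C, with a median of −0.29.

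In the mevalonate pathway, ACAT2, which joins acetyl-CoA units at its first step, was at 66.8, 140.2 and 138.5 CPM in the JUN knockout and 117.6, 107.5 and 130.1 CPM in the double knockout. The double knockout values lay between those of JUN knockout replicate 1 and the other JUN knockout libraries (log2 fold change 0.04, SE 0.27, edgeR adjusted p = 0.992). FDPS was at 103.7, 154.9 and 159.6 CPM and at 122.1, 112.4 and 143.6 CPM (−0.15, SE 0.18, edgeR adjusted p = 0.968). PMVK was almost flat, at 21.6, 24.2 and 24.3 CPM and at 20.7, 21.8 and 22.8 CPM (−0.10, SE 0.10, edgeR adjusted p = 0.956). For FDPS, 29.5% of the reads were assigned to FDPS-215, a transcript annotated as retaining an intron, and 8 pseudogenes carry its name, so its count is uncertain. IDI1, CYP51A1, HSD17B7 and SCD also have named pseudogenes. The ACAT2 gene overlaps TCP1 and SOD2 on the opposite strand. The other 4 genes of the pathway, HMGCS1, MVK, MVD and IDI1, had log2 fold changes of 0.03 to 0.25.

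From squalene to cholesterol, FDFT1, which makes squalene, was at 125.3, 225.3 and 193.4 CPM and at 209.8, 185.2 and 210.9 CPM. Its groups overlapped, with JUN knockout replicate 1 below every other library (0.16, SE 0.20, edgeR adjusted p = 0.968). EBP, a sterol isomerase, was at 51.2, 80.0 and 80.6 CPM and at 72.0, 59.5 and 80.9 CPM (0.00, SE 0.20, edgeR adjusted p = 0.999). SC5D, the desaturase that precedes DHCR7, was at 22.1, 29.4 and 35.5 CPM and at 32.9, 31.6 and 37.5 CPM. It had the lowest unadjusted p of this stage and was higher in the double knockout in 3 of 3 codes (0.23, SE 0.18, edgeR adjusted p = 0.942), though leaving out JUN knockout replicate 1 or 3 gave 0.07 or 0.40, and leaving out double knockout replicate 3 gave 0.15. The other 8 genes had log2 fold changes of −0.02 (HSD17B7) to 0.30 (DHCR7). CYP51A1 overlaps 2 other annotated genes on its own strand, so its reads may be split.

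ACACA was the fatty acid gene with the lowest p. It lies on chromosome 17 at 37084988 to 37406818, minus strand (GRCh38), and encodes the carboxylase that makes malonyl-CoA. Its mRNA was at 78.4, 71.6 and 79.5 CPM in the JUN knockout and 112.8, 132.6 and 101.0 CPM in the double knockout. Every double knockout library was above every JUN knockout library, with means of 76.5 ± 4.27 and 115.5 ± 16.0 CPM (SD, n = 3 each). The log2 fold change was 0.59 (SE 0.12), which did not pass with edgeR (unadjusted p = 0.00134, adjusted p = 0.563 over all genes; with the block, adjusted p = 0.231) and passed with DESeq2 (adjusted p = 0.00492). It stayed between 0.48 and 0.68 when any 1 library was left out. It was positive in all 3 codes, at 0.53, 0.89 and 0.35, and in 4C it was the single fatty acid gene above 0.

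**Figure D4:**
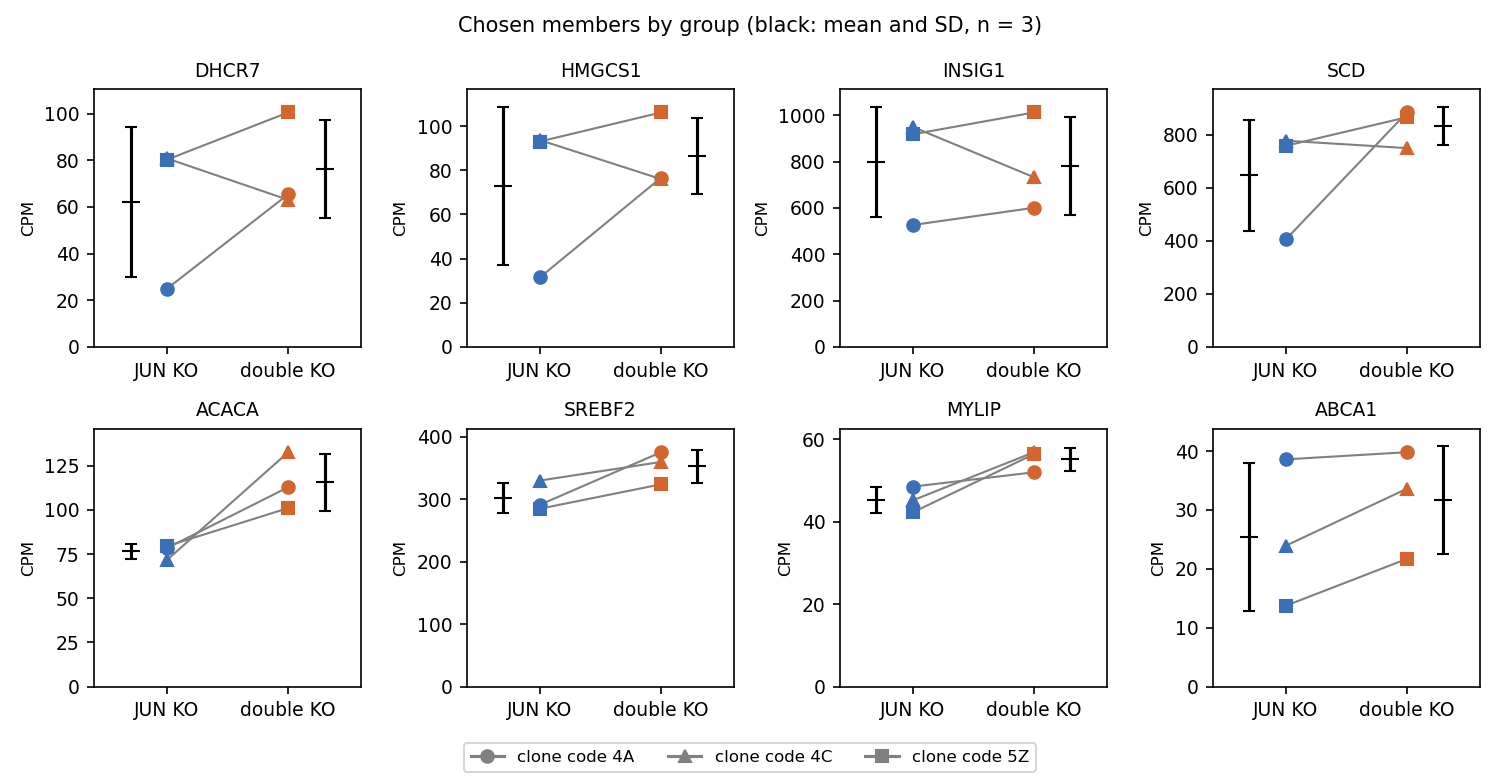
CPM of 8 members (y axis, from 0) in the JUN knockout and double knockout (x axis), with lines joining libraries of the same clone code and black bars giving mean and SD (n = 3). ACACA and MYLIP show no overlap between groups, DHCR7, HMGCS1 and SCD have 1 low JUN knockout library, and ABCA1 is ordered by clone code.

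Transcript estimates for ACACA were split by start site. ACACA-231 carried 88.0% of its reads and starts at 37359116, and ACACA-237, with 11.2%, starts 47664 bases further upstream at 37406780. For ACACA-231 the JUN knockout libraries had 6.46, 5.27 and 6.04 TPM and the double knockout libraries 9.60, 11.8 and 8.22 TPM. ACACA-237 was at 1.23, 1.11 and 0.885 TPM and at 0.820, 0.927 and 0.738 TPM, with overlapping groups. The share of ACACA-237 in the sum of both was 16.0%, 17.4% and 12.8% in the JUN knockout and 7.87%, 7.30% and 8.25% in the double knockout. These shares did not overlap (15.4% ± 2.36 and 7.81% ± 0.478, SD, n = 3 each; exact two-sided permutation p = 0.1, the smallest that 3 against 3 allows). This split was examined after the gene's values were seen, and it rests on Salmon's assignment of reads shared between transcripts. Among the most read transcripts of SREBF1, SREBF2, INSIG1, FDPS and SCAP, the TPM of SREBF1-204, SREBF2-201, INSIG1-206 and FDPS-204 also did not overlap. Each had the same exact permutation p of 0.1, while the others examined overlapped. The share over all transcripts was not computed. The stretches before the starts are shown because the split lies between them, with CCAAT on the opposite strand in capitals before the downstream start and no searched motif before the upstream start.
ACACA-231 (chr17:37359268-37359327, minus strand): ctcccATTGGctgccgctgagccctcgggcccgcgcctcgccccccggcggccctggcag
ACACA-237 (chr17:37406950-37407009, minus strand): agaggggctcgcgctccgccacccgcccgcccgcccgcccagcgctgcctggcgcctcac

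**Figure D5:**
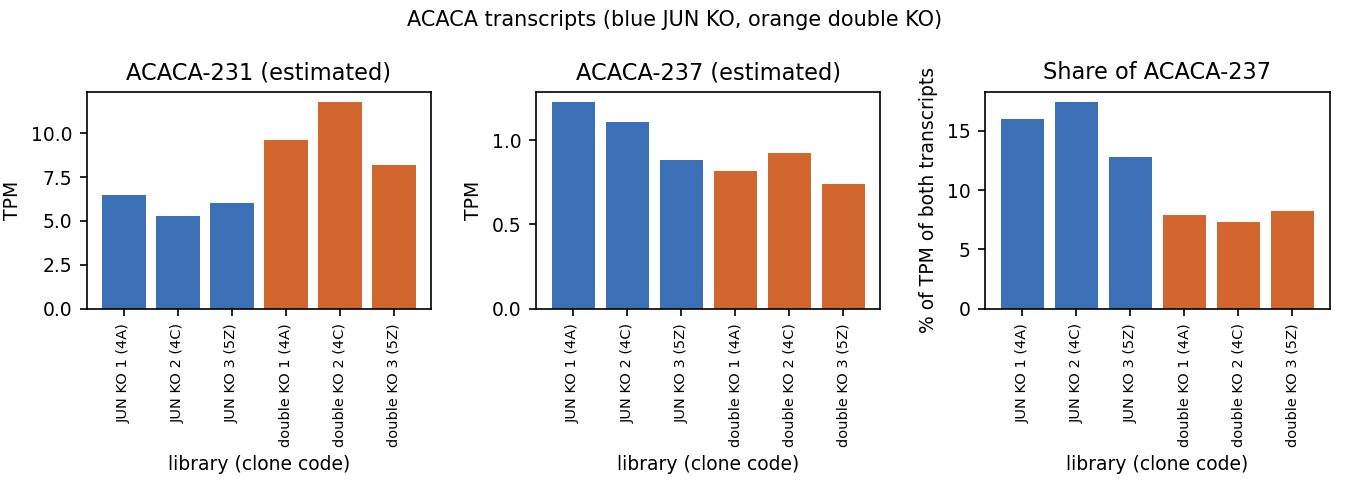
Estimated TPM of ACACA-231 (left) and ACACA-237 (middle), and ACACA-237 as a percentage of the TPM of both (right), in each library by clone code. The percentage is 12.8 to 17.4 in the JUN knockout and 7.30 to 8.25 in the double knockout.

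Other fatty acid genes overlapped between the groups. For SCD the log2 fold change was 0.37 (SE 0.24, edgeR adjusted p = 0.922), and it was 0.12 without JUN knockout replicate 1. For ACLY it was 0.03 (SE 0.17, edgeR adjusted p = 0.991). FASN, the fatty acid synthase, and the desaturases FADS1 and FADS2 had log2 fold changes of 0.23, 0.30 and 0.39. FADS1 and FADS2 overlap on opposite strands. ACSS2 had one of 0.05.

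Among the SREBP control genes, SREBF2 (chromosome 22, 41833079 to 41907308, plus strand) was at 291.2, 330.0 and 284.9 CPM in the JUN knockout and 375.4, 359.8 and 324.0 CPM in the double knockout. It was higher in the double knockout in 3 of 3 codes, with groups that overlapped by 1 library (0.23, SE 0.10, edgeR adjusted p = 0.859, and 0.473 with the block). SREBF1 was at 171.1 ± 21.9 and 173.4 ± 19.1 CPM (SD, n = 3 each), which differed by 0.02 on the log2 scale (SE 0.12, edgeR adjusted p = 0.992). The SREBF1 counts do not separate SREBP-1a from SREBP-1c here. INSIG1 was at 797.8 ± 235.7 and 781.6 ± 210.1 CPM (−0.03, SE 0.27, edgeR adjusted p = 0.995). INSIG2, the INSIG paralogue, was at 14.5, 14.5 and 13.8 CPM and at 15.5, 14.7 and 15.2 CPM (0.08, SE 0.10, edgeR adjusted p = 0.966). With the transcript length offset, the log2 fold changes of SREBF2 and INSIG2 were 0.43 and 0.35 (unadjusted p = 0.0128 and 0.0474, edgeR adjusted p = 0.826 and 0.853). SCAP, the sterol sensor that escorts SREBP, had a log2 fold change of 0.12 (SE 0.07).

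Of the LXR targets, MYLIP encodes the ubiquitin ligase IDOL, which marks lipoprotein receptors for breakdown. MYLIP (chromosome 6, 16129125 to 16148248, plus strand) was at 48.5, 45.2 and 42.3 CPM in the JUN knockout and 52.0, 56.9 and 56.4 CPM in the double knockout. The groups did not overlap (0.28, SE 0.09, unadjusted p = 0.0144, adjusted p = 0.789 by edgeR). ABCA1, with the values given by clone code, was higher in the double knockout in 3 of 3 codes (0.32, SE 0.38, edgeR adjusted p = 0.968, and 0.441 with the block). Leaving out JUN knockout replicate 1 or 3 gave 0.75 or 0.02, and leaving out double knockout replicate 1 or 3 gave 0.12 or 0.53. NPC1, which moves cholesterol out of lysosomes, was at 42.3, 44.0 and 36.8 CPM and at 44.4, 46.4 and 39.9 CPM (0.09, SE 0.10, edgeR adjusted p = 0.968). Its fold change was 0.27 with the transcript length offset (unadjusted p = 0.0421, edgeR adjusted p = 0.853), and with 1 library left out it ran from 0.01 (without JUN knockout replicate 3) to 0.15. Its gene overlaps RMC1 on the opposite strand. STARD4, a cytosolic sterol carrier chosen after its values were seen, was at 12.3, 22.2 and 18.4 CPM and at 19.6, 21.5 and 28.4 CPM, low in JUN knockout replicate 1 like the sterol genes (0.39, SE 0.24). ABCG1, another sterol pump, stayed under 1 CPM in every library.

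A further 40 genes of the pathway were listed by role, with earlier results of these data known. They included SREBP proteases, LXR and RXR receptors, fatty acid elongases and lipid carriers. Of these, 38 were tested and 0 passed between the groups, with 26 above 0 and a median log2 fold change of 0.06. The lowest p was that of LIPA, the lysosomal lipase that frees cholesterol from its esters, at 59.3, 49.7 and 52.9 CPM and 63.1, 67.4 and 67.7 CPM (0.29, SE 0.09, edgeR adjusted p = 0.789). RNF139, a sterol-sensing ubiquitin ligase, had the next lowest (0.17, SE 0.08, edgeR adjusted p = 0.887). By clone code 1 of 38 passed, VLDLR, a lipoprotein receptor, with an edgeR adjusted p of 0.0198, against 1.75% of all genes, and 12 of 38 had an unadjusted p under 0.05, against 20.0% of all genes. VLDLR was at 188.4 and 210.0 CPM in 4A, 134.8 and 168.1 CPM in 4C, and 100.4 and 101.5 CPM in 5Z, the same order of codes as ABCA1. MBTPS2, a protease that releases SREBP, was next, at 24.7 and 25.9 CPM in 4A, 18.4 and 23.7 CPM in 4C, and 15.6 and 16.3 CPM in 5Z (edgeR adjusted p = 0.0924).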

How the data were processed

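The deposited files hold, per the file headers, a Salmon estimated count and a TPM for each of 177456 transcripts per library. Versions, per the submitters' processing notes, were Salmon 1.6.0 and FastQC 0.11.9, and the build was hg38. Ensembl identifiers were looked up in GENCODE release 29 (GRCh38). Of the transcripts, 167027 matched, and the other 10429, with 3.58% to 3.71% of a library's reads, were left out. Deposited estimated counts and TPM were summed over the transcripts of a gene, and the counts were rounded.

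The main test was edgeR 4.0.16 (R 4.3.3; filterByExpr, TMM, robust quasi-likelihood F test, two-sided) on 12954 genes, with Benjamini-Hochberg adjustment at 0.05. The group was its single term, and clone code was tested with the group as a second term. CPM is after TMM scaling. Positive log2 fold changes mean higher in the double knockout, and SE is the standard error. DESeq2 1.42.0, limma-voom 3.58.1, other filters and scalings, a replicate block and libraries left out were alternatives. The procedure was tested on simulated data, with larger group changes than the members showed and no split of libraries across the genotypes. That test does not gauge how well changes as small as those of the members would be called here.

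Members and lists were chosen with earlier results of these data known. Values in every library were given for members past 0.05 in an edgeR test, for SREBF1, SREBF2, INSIG1 and INSIG2, and per role for the 2 highest in TPM and the lowest group p; others were chosen after values were seen. Of the 40 further genes, the 2 lowest p-values of each test were named.

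Replicate numbers pair the groups through clone codes in the deposited file names. Deviations from group means correlated at 0.387, 0.103 and 0.523 across genes for numbers 1, 2 and 3. JUN knockout replicate 2 correlated equally with double knockout replicate 3 (0.103). Double knockout replicate 2 correlated more with JUN knockout replicate 1 (0.201). The other unmatched pairs had negative values. The correlations thus set apart the pairs of numbers 1 and 3 but not that of number 2. JUN knockout replicate 1 and double knockout replicate 3 also stood apart from their own groups. These correlations cannot tell pairing by clone code from that split. The closest library pair had a chi-square of 11.7 per gene, far above sampling noise, so all 6 were kept. Low counts limit ABCG1 and ELOVL6.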

Additional observations from a re-analysis of the deposited data

How the results depend on the processing

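With the replicate block, edgeR called 0 genes and 0 members between the groups, as without it, and the sterol and fatty acid medians were 0.16 and 0.32; it changed no call. Between the groups, DESeq2 called 71 genes and 1 member, limma-voom 4 genes, and edgeR 1 gene with no low-count filter and 1 without both replicates 3. The sterol median ran from −0.0936 to 0.2621 when 1 library was left out and was −0.0655 without both replicates 1. By clone code, DESeq2 called 905 genes and 4 members, no low-count filter 686 and 2, and the transcript length offset 61 and 0, while limma-voom and the fit with no group term called 0 members. Leaving out 1 library gave 141 to 2634 genes and 0 to 20 members. Log2 fold changes near 0 turned sign. With 1 library left out, they ran from −0.235 to 0.2012 for ACAT2, −0.1263 to 0.1249 for ACLY, −0.1817 to 0.1148 for EBP, −0.0518 to 0.3358 for FDFT1, −0.3194 to −0.0363 for FDPS (which kept its sign), −0.2599 to 0.1281 for INSIG1 and −0.0762 to 0.1299 for SREBF1. Without both replicates 1 they were −0.2299 (ACAT2), −0.0424 (ACLY), −0.1935 (EBP) and −0.0801 (FDFT1). Without both replicates 2 they were 0.004 (FDPS), 0.1507 (INSIG1) and −0.0005 (SREBF1), and without both replicates 3 −0.0233 (ACLY) and −0.0029 (EBP). With the length offset they were −0.0131 (EBP), 0.065 (INSIG1) and −0.0476 (SREBF1), while those of SREBF2, INSIG2 and NPC1 grew to 0.4345, 0.3469 and 0.2727, and EBP was at −0.0009 with DESeq2 and −0.0008 with RLE scaling. The cause was not tested. For the 16 members followed, 226 alternative log2 fold changes kept their direction and side of the threshold, 29 turned sign and 1 (ACACA with DESeq2) came to pass.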
